A study of Caenorhabditis elegans with 2 samples.

Results

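The spliced leader RNA genes of Caenorhabditis elegans were examined for chromatin that came down with tagged LIR-1, a protein with zinc fingers. They were taken as every gene whose name starts with sls-1 or sls-2 in the Ensembl annotation, which gave 30 of 46890 nuclear genes, 18 of the sls-2 type and 12 of the sls-1 type. Chromatin immunoprecipitation followed by sequencing had been done in 2 libraries of 1 group, labelled as biological replicates 1 and 2. The worms were of strain RW12318, in which TY1, EGFP and 3xFLAG tags had been inserted by CRISPR at the lir-1 locus on chromosome II. They were grown from L1 larvae starved after bleaching and collected as young adults at 63 hours. An anti-GFP antibody was used on their sonicated chromatin. Both libraries came from this 1 strain and from whole animals, so strong precipitation in a few cells and weak precipitation in many cannot be told apart. Neither untagged animals nor another stage nor the authors' control alignment was analysed here, so no comparison between conditions was possible.

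Many messenger RNAs of this worm do not keep the 5′ end with which they were transcribed. In trans-splicing, a short leader is cut from the start of a spliced leader RNA, which travels as a small ribonucleoprotein particle, and is joined to the messenger RNA. The SL1 leader, from sls-1 genes, goes to most trans-spliced messages, whereas SL2 leaders, from sls-2 genes, go mainly to downstream genes of operons. The sls-1 genes are known to be repeated in tandem with 5S ribosomal RNA genes, in more copies than the assembly holds. Like spliceosomal small nuclear RNA genes, these genes are short, and in worms transcription of such genes is known to depend on a proximal sequence element just upstream that is recognised by the SNAPc complex.

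The genes are shown here because the 2 types differ in copy structure as well as in sequence. Each line gives the RefSeq genome sequence of ce11 over the Ensembl gene, 5′ to 3′ from its annotated 5′ end, with the leader, the bases before the GT at which splicing begins, in capitals.
sls-2.1 (chrII:5844865-5844974, plus strand): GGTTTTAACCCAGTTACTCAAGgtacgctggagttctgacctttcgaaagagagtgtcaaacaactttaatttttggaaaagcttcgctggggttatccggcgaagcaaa
sls-2.14 (chrIII:11090412-11090523, minus strand): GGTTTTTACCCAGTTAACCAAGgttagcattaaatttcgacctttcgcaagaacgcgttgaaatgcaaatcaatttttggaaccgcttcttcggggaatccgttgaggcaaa
sls-2.13 (chrIV:5063422-5063531, minus strand): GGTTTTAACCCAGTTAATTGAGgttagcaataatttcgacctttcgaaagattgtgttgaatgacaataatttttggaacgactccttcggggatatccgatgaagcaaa
sls-1.10 (chrV:17131064-17131161, minus strand): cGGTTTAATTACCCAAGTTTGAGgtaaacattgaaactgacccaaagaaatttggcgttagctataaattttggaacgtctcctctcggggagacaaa
sls-1.1 (chrV:17126556-17126623, minus strand): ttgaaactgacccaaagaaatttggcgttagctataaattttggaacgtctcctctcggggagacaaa

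All 18 sls-2 genes had a sequence of their own, with 11 different leaders of 21 to 23 bases. The 12 sls-1 genes had only 2 sequences among them. The 10 genes named sls-1.10 were identical over their 98 bases and began 1 base before the leader. The 2 genes named sls-1.1 were 68 bases long, matched sls-1.10 from its base 31 to the end, and lacked the leader. The sls-2 genes lay scattered over chromosomes I, II, III and IV. All 12 sls-1 genes lay in a block of 13954 bp on chromosome V, from 17118154 to 17132107, among 12 annotated 5S ribosomal RNA genes. Within it 11 sls-1 genes were on the minus strand and 1 on the plus strand, while all 12 5S genes were on the plus strand. The median step from one sls-1 5′ end to the next was 976 bp.

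In the peak lists, sites of LIR-1 lay at most sls-2 genes and at no sls-1 gene. A site is a peak of the authors' conservative set, and a gene was counted when a summit lay between 1000 bp upstream and 200 bp downstream of its 5′ end. By this count 11 of 18 sls-2 genes had a site (61.1%, exact Clopper-Pearson 95% interval 35.7 to 82.7), and 0 of 12 sls-1 genes did (the same interval reaches 26.5%, and the limit of 3 counts that a count of 0 allows is 25.0%). Of all nuclear genes, 3.4% had one. The interval and the limit treat genes as independent, which neighbours and identical copies are not, and they cover counting error only. They do not cover whether reads can be placed at the repeated sls-1 copies, which is taken up below. No test was made of the difference between the types, since the genes are not replicates of a condition.

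With the window narrowed to 200 bp on either side of the 5′ end, 10 sls-2 genes (55.6%) and 0 sls-1 genes had a site, against 1.84% of all nuclear genes. Among the most similar classes, 9.09% of the 99 other snRNA genes, 17.6% of the 346 snoRNA genes and 22.5% of the 612 tRNA genes had a site within 200 bp. The 16 annotated 5S ribosomal RNA genes had none, but 12 of them lie in the repeated block of the sls-1 genes. How much of their sequence occurs once in the genome was not counted. The authors' ranked list, which holds all 36484 nuclear peaks compared between the libraries whether or not they passed the threshold, placed a peak within 200 bp of 17 of 18 sls-2 genes. It placed one there at no sls-1 gene, at 40.4% of other snRNA genes, 43.1% of snoRNA genes, 74.3% of tRNA genes and 15.5% of all nuclear genes. Among the 5S ribosomal RNA genes it placed one there at 3 (18.8%). In the wider window it placed one at 17 sls-2 genes, 1 sls-1 gene and 31.2% of all nuclear genes.

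**Figure D1:**
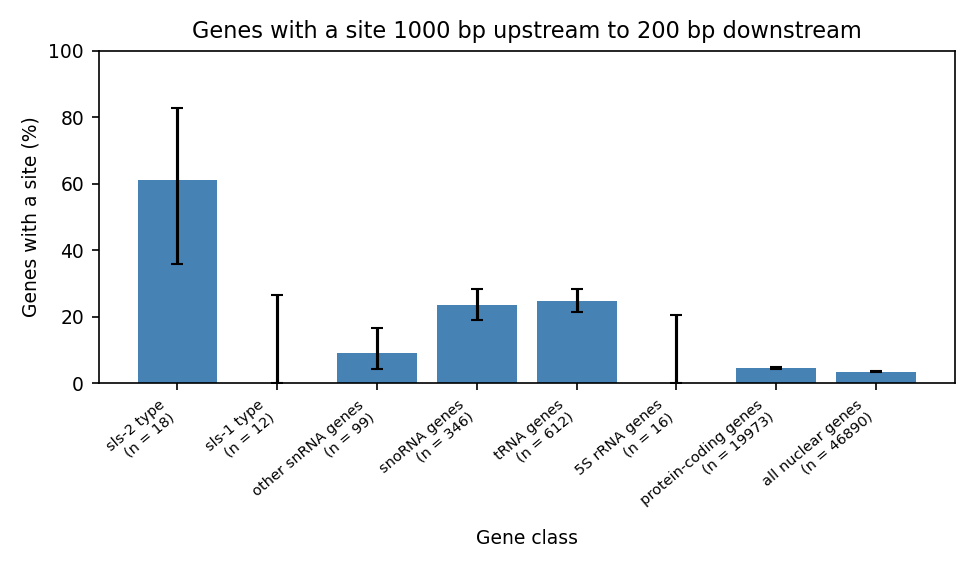
Percent of genes with a site 1000 bp upstream to 200 bp downstream of the 5′ end, by gene class, with exact 95% binomial intervals as bars. The sls-2 genes stand at 61.1% and the sls-1 genes at 0, beside 3.4% of all nuclear genes. The sls-1 genes are repeated copies, so their 0 is a statement about peaks in the lists.

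The 11 sls-2 genes shared sites in part. Their windows held 11 distinct sites, 10 of which lay within 200 bp of an sls-2 5′ end. The gene sls-2.18 was counted only through a summit at -911 bp, counted along the gene from its 5′ end with negative values upstream. The same summit lay at -11 bp from the neighbouring gene sls-2.16. The divergent genes sls-2.14 and sls-2.15, whose 5′ ends are 487 bp apart inside an intron of W09D6.5, each had a site of their own. The genes sls-2.5, sls-2.16 and sls-2.18 lie together in an intron of glr-2, a glutamate receptor gene. In all, 7 sls-2 genes lie in introns of protein-coding genes, and 4 of them had a site within 200 bp.

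The strongest sls-2 sites were found in both libraries alike. Signal is the height that the authors' peak caller gave a peak, and no source used here states its scale. The value for both libraries together is on another footing than the value of each library and was not compared with it. At sls-2.1 the signal was 194 for both libraries together, 95.3 in replicate 1 and 105 in replicate 2 (mean 100.2 ± 7.05, SD, n = 2). By signal this site ranked 72 among the 1209 sites. At sls-2.2 it was 162 for both, 73.0 in replicate 1 and 87.7 in replicate 2 (80.4 ± 10.4, SD, n = 2). Both genes carry the same leader, which sls-2.3 and sls-2.4 share.

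The gene sls-2.4 on chromosome I had 147 for both libraries, 65.5 in replicate 1 and 68.7 in replicate 2 (67.1 ± 2.22, SD, n = 2). The gene sls-2.8 on chromosome III also had 147 for both, with 70.1 in replicate 1 and 78.3 in replicate 2 (74.2 ± 5.81, SD, n = 2). Both of these, like sls-2.1 and sls-2.2, passed the threshold in each library's own list. These were 4 of the 10 sites within 200 bp. The own lists held 828 nuclear peaks in replicate 1 and 580 in replicate 2, fewer than the 1209 sites. The share of all sites that passed in both was not counted.

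The remaining 6 sites were weaker and passed in the own list of 1 library or of neither. At sls-2.14 the signal was 103 for both libraries, 36.3 in replicate 1 and 63.1 in replicate 2 (49.7 ± 18.9, SD, n = 2). At sls-2.9 it was 98.2 for both, 28.7 in replicate 1 and 62.7 in replicate 2 (45.7 ± 24.1, SD, n = 2). At sls-2.7 it was 73.9 for both, 27.0 in replicate 1 and 48.0 in replicate 2 (37.5 ± 14.9, SD, n = 2). These 3 passed in replicate 2's own list and not in that of replicate 1.

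The other direction was seen at sls-2.16, with 85.2 for both, 47.4 in replicate 1 and 36.4 in replicate 2 (41.9 ± 7.76, SD, n = 2). At sls-2.15 the signal was 77.9 for both, 43.1 in replicate 1 and 31.1 in replicate 2 (37.1 ± 8.44, SD, n = 2). Both passed in replicate 1's own list and not in that of replicate 2. At sls-2.5 the signal was 67.3 for both, 35.6 in replicate 1 and 33.1 in replicate 2 (34.4 ± 1.70, SD, n = 2), and neither own list held it. Within 200 bp, 6 sls-2 genes had a peak of replicate 1's own list, where 1.26% of all nuclear genes had one, and 7 had a peak of replicate 2's, where 0.955% had one. Signal was higher in replicate 2 than in replicate 1 at 7 of the 10 sites. Over each library's whole ranked list the median signal was also higher in replicate 2 (19.2) than in replicate 1 (17.5).

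**Figure D2:**
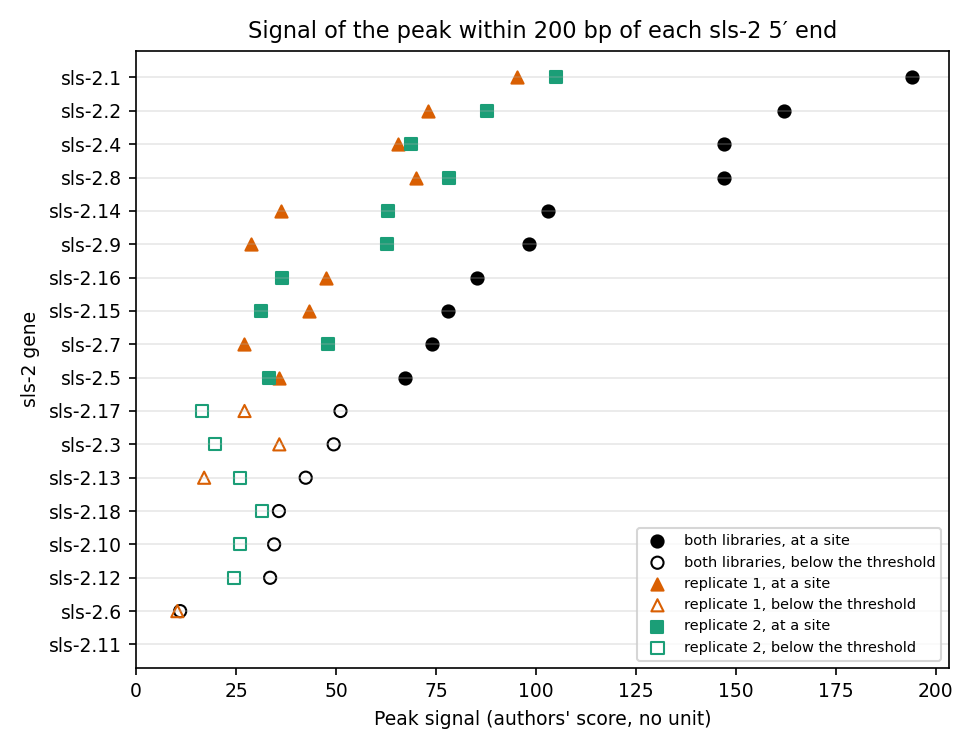
Peak signal (the authors' score) within 200 bp of the 5′ end of each sls-2 gene, for both libraries together, replicate 1 and replicate 2, with filled marks at sites and open marks at ranked peaks below the threshold. Signal for both libraries runs from 67.3 to 194 at the 10 sites and from 11.0 to 51.1 at the 7 lesser peaks, and sls-2.11 has no mark.

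As a group these sites were close to the middle of the whole set. Over the 11 distinct sites in the windows the median signal was 98.2, with a range of 23.0 to 194, and the median over all 1209 sites was 86.4. Of the 11 sites, 6 lay above that median. The weakest, at 23.0, was a second peak at -219 bp from sls-2.5. It overlapped the site at -15 bp from that gene and was matched to the same peaks of the libraries, so it is not a separate observation. Over the 10 sites within 200 bp, which leave it out, the median was 100.5.

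The 8 sls-2 genes with no site within 200 bp were well short of the threshold. The threshold rests on the irreproducible discovery rate (IDR), which is low for peaks ranked both high and alike in the 2 libraries. It was at most 0.00997 in the conservative set. For 7 of these genes the strongest ranked peak within 200 bp had an IDR of 0.373 to 0.866 and a signal of 11.0 to 51.1, where the median signal over all ranked peaks was 28.4. Just inside the limit was the site of sls-2.7, at an IDR of 0.00694, and the nearest gene outside it was sls-2.3.

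At sls-2.3 the peak at -24 bp had 49.4 for signal and 0.373 for IDR, with 35.8 in replicate 1 and 19.7 in replicate 2. It carries the leader of sls-2.2, which faces it 675 bp away and had a site. At sls-2.13 the peak at -5 bp had 42.4 (IDR 0.391), with 17.0 in replicate 1 and 25.9 in replicate 2. At sls-2.17 the strongest peak lay at 159 bp with 51.1 (IDR 0.674), with 27.1 in replicate 1 and 16.4 in replicate 2. All 3 thus overlapped ranked peaks of both libraries below the threshold. At sls-2.17, however, the matching summits lay at 10 bp in replicate 1 and 126 bp in replicate 2. A second ranked peak there, at -40 bp, was matched to the same peaks of the libraries.

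Peaks of only 1 library lay behind the rest. At sls-2.18 the peak at -64 bp had 35.7, at sls-2.12 that at -200 bp had 33.5 and at sls-2.10 that at 89 bp had 34.5. Each of these overlapped a ranked peak of replicate 2 (24.5 to 31.5) and none of replicate 1. At sls-2.6, which lies in an intron of hgo-1, a gene of tyrosine breakdown, the peak within 200 bp had 11.0, overlapped one of replicate 1 (10.3) and none of replicate 2. The gene sls-2.11, in an intron of daf-10, a gene of ciliary transport, had no ranked peak in its window. All 5 sls-2 genes on chromosome IV were among those without a site, while 10 of the 13 on other chromosomes had one within 200 bp. The share of all genes with a site was not counted by chromosome, so this is not read as a difference between chromosomes.

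Summits lay close to the 5′ ends. Over the 10 sls-2 genes with a site within 200 bp, the nearest summit lay at a median of -13.5 bp, with a range of -98 to 53 bp. It lay upstream at 8 genes and inside the gene at 2, sls-2.15 at 53 bp and sls-2.7 at 9 bp. At 9 of the 10 it was within 60 bp of the 5′ end, a share that was not counted for other genes. In the wider window the median was -15.0 bp over 11 genes. There it was -45.0 bp without replicate 2, -36.5 bp without replicate 1 and -36 bp in the authors' other series set. The median offsets at other snRNA and snoRNA genes with a site within 200 bp were -20.0 and -24.0 bp, and that over all nuclear genes was -19.0 bp. At tRNA genes, whose promoters for RNA polymerase III lie inside the gene, the median was 16.5 bp. It was -108 bp at protein-coding genes. The limit of 200 bp cuts the classes unlike. It kept 347 of the 883 protein-coding genes with a site in the wider window, and 10 of the 11 sls-2 genes.

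The libraries did not place these summits alike. The summit of the matching peak lay at a median of -8.50 bp in replicate 1 and -35.5 bp in replicate 2, and the distance between the libraries had a median of 32.5 bp and ran from 1 bp at sls-2.4 to 105 bp at sls-2.16. At a single gene, offsets that differ by less than this are not told apart. The 32.5 bp does not measure the spread of a median over a class. No such spread was computed, and the differences between the medians of the classes were not tested.

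**Figure D3:**
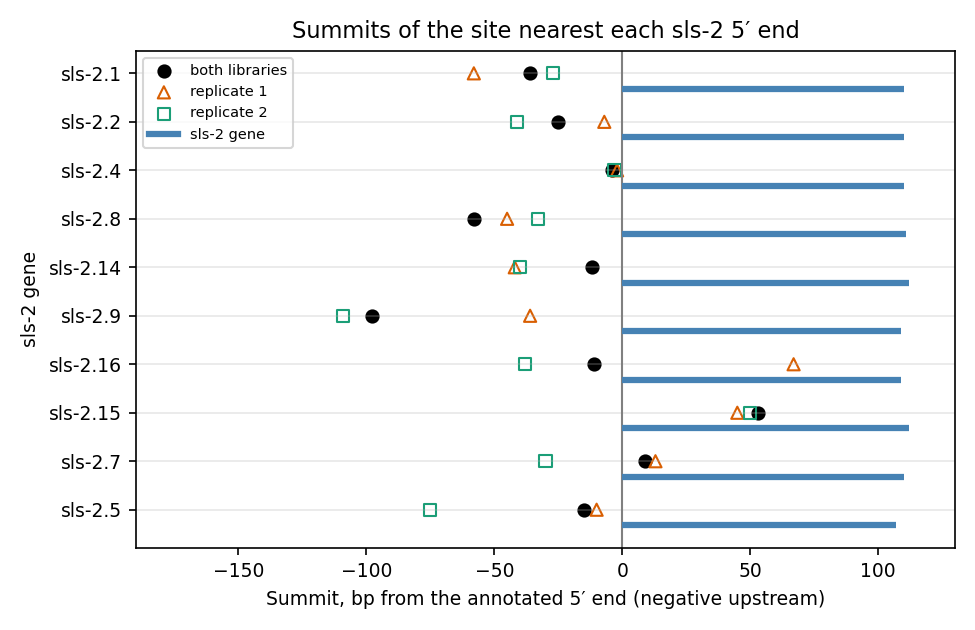
Summit of the nearest site, in bp from the annotated 5′ end of the 10 sls-2 genes with a site within 200 bp, for both libraries together and for each replicate's matching peak, with the gene drawn as a bar. Filled circles run from -98 to 53 bp, and the replicates' marks are up to 105 bp apart.

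Most of these summits were not assigned to protein-coding promoters. The same summit lay in the window of a protein-coding gene at 4 of the 10 genes, namely H41C03.3 for sls-2.1, egg-5, which encodes a phosphatase-like protein of the oocyte, for sls-2.4, W06D4.3 for sls-2.7, and tim-1 with Y75B8A.23 for sls-2.8. At the other 6 it lay in none. The share of all 1209 sites in no protein-coding window was not counted, so this is not read as particular to the sls-2 sites.

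The upstream sequences of the sls-2 genes were alike at a fixed distance from the leader. Aligned without gaps at the first base of the leader, the commonest base at a position was held by 40.1% of the 18 genes on average at -150 to -101. It was held by 46.5% at -100 to -71, 64.0% at -70 to -36, 51.1% at -35 to -11 and 58.9% at -10 to -1. Over the first 12 bases of the leader it was held by 94.9%. The most alike run of 6 bases within 100 bases upstream was at -48 to -43, where the commonest bases spell TGTCGG and 81.5% of the genes held them on average. Some of these sequences are nearly the same over long stretches, as at sls-2.13 and sls-2.17, so the 18 genes are not independent. How much of the agreement comes from such copies was not counted.

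**Figure D4:**
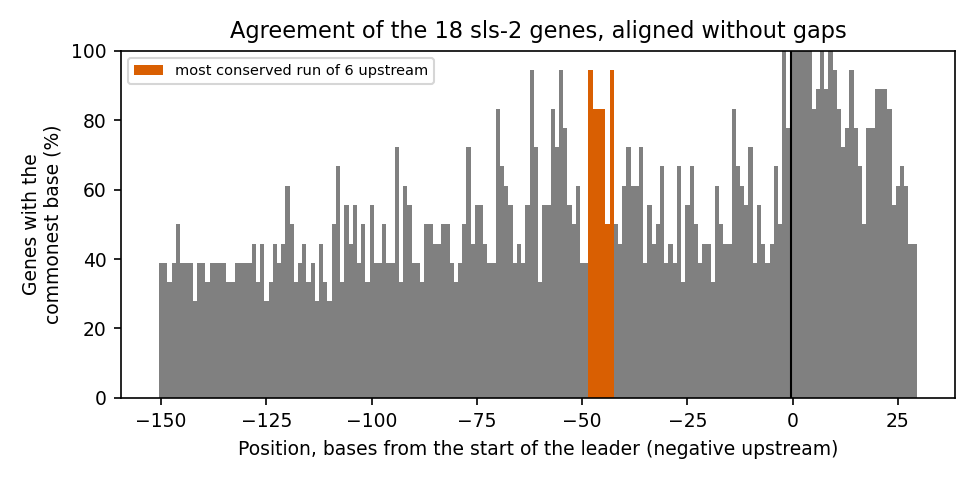
Percent of the 18 sls-2 genes that hold the commonest base at each position, aligned without gaps at the first base of the leader. The run at -48 to -43 averages 81.5%, the positions from -150 to -101 average 40.1% and the first 12 bases of the leader average 94.9%.

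The 80 bases before the leader are shown because they hold this run in both types. The first 7 lines are genes with a site within 200 bp, the next 5, from sls-2.18 on, are sls-2 genes without one, and the last is sls-1.10. All are RefSeq genome sequence of ce11, 5′ to 3′ on the gene's strand. Capitals mark the 6 bases that best match TGTCGG at -48 or 1 base to either side.
sls-2.1 (chrII:5844785-5844864, plus strand): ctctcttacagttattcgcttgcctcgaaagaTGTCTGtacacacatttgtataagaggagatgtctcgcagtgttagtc
sls-2.2 (chrII:5543518-5543597, plus strand): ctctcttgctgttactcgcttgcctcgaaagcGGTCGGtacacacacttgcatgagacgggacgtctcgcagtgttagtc
sls-2.8 (chrIII:12250385-12250464, plus strand): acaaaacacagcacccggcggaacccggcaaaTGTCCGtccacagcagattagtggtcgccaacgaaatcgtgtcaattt
sls-2.14 (chrIII:11090524-11090603, minus strand): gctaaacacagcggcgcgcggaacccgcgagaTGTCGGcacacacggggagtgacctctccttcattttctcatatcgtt
sls-2.15 (chrIII:11090930-11091009, plus strand): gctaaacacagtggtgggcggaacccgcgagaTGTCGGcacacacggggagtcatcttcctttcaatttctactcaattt
sls-2.16 (chrIII:7141311-7141390, plus strand): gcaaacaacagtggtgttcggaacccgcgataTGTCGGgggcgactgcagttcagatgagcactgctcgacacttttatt
sls-2.5 (chrIII:7140554-7140633, minus strand): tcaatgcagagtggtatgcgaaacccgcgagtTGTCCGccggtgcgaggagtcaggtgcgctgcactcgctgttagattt
sls-2.18 (chrIII:7142211-7142290, plus strand): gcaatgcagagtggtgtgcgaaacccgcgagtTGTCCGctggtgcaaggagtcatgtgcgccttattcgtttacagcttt
sls-2.3 (chrII:5544274-5544353, minus strand): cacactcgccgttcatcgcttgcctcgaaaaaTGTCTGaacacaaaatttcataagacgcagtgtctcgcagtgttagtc
sls-2.13 (chrIV:5063532-5063611, minus strand): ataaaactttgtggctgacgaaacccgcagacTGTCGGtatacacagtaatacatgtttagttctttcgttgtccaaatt
sls-2.17 (chrIV:5317369-5317448, minus strand): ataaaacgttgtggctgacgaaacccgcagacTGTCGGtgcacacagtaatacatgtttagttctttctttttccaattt
sls-2.11 (chrIV:9140335-9140414, plus strand): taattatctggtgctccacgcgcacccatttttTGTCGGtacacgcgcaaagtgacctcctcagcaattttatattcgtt
sls-1.10 (chrV:17131161-17131240, minus strand): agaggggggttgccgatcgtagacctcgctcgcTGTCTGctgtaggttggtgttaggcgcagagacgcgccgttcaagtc

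Between 5 and 6 of these 6 letters were matched there, on the gene's strand, at 16 of 18 sls-2 genes, and also at all 10 sls-1.10 copies, where 5 matched. At 1.13% of all nuclear genes the annotated 5′ end had such a match at the same distance, and at 30.3% of the other snRNA genes. The word was read from the sls-2 genes themselves, so their own share is a description. Anywhere in the 100 bases upstream and on either strand, TGTCGG stood at 12 of 18 sls-2 genes, 30.3% of other snRNA genes, 10.1% of snoRNA genes and 1.98% of all nuclear genes.

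The word stood at sls-2 genes with and without a site. It was matched at 5 or 6 letters at 9 of the 10 sls-2 genes with a site within 200 bp, the exception being sls-2.7 with 4. It was also matched at 7 of the 8 without one, the exception being sls-2.6, where 2 letters matched. Over the 35 bases from -70 to -36, genes with a site matched the commonest bases at a median of 23.5 positions and genes without one at 22.5. Genes with a site ranged from 18 to 30 positions and genes without one from 10 to 29. The lowest were sls-2.6 with 11 and sls-2.10 and sls-2.11 with 10, below every gene with a site, and with a shift of 1 base sls-2.10 and sls-2.11 matched at 17. The genes sls-2.12, sls-2.13 and sls-2.17, also without a site, matched at 29. Around all 1209 sites, 3.64% of 101 bp windows held the word on either strand.

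Whether a read can be placed at a gene depends on how often its sequence occurs. Within 150 bp of the 5′ end, no word of 36, 50 or 100 bases was found only once in the genome at 11 of the 12 sls-1 genes. The exception, the plus-strand copy WBGene00077488 at the edge of the block, had 39.8% of its 100-base words found once. At all 18 sls-2 genes every 100-base word occurred once. Of 50-base words, a median of 100% occurred once at sls-2 genes with a site within 200 bp, with a range of 80.9 to 100%, against a median of 88.0% and a range of 68.5 to 100% at those without.

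No source used here gives the read length or says how reads with several matches were treated, so the 0 of 12 at sls-1 genes is a statement about peaks in the lists and not about LIR-1 at these genes. The block from the first to the last sls-1 gene held 1 ranked peak, at 17128215 (signal 25.0, IDR 0.866), where the mean density over the genome would place 5.08. The plus-strand copy alone had ranked peaks in its window, the stronger at -604 bp (signal 32.2, IDR 0.747). Whether repeated sequence had a part in which sls-2 genes lacked a site was not tested.

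**Figure D5:**
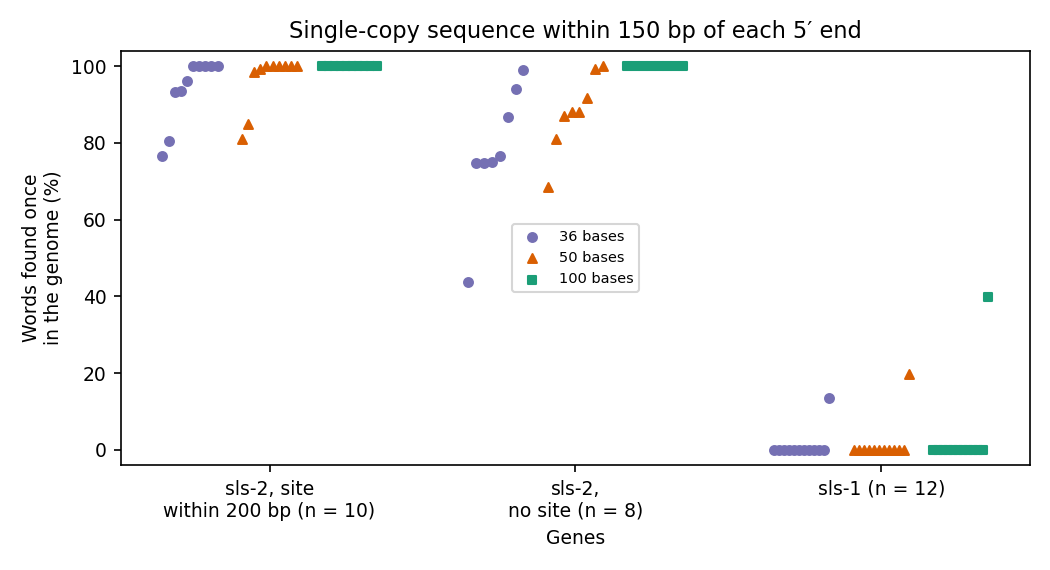
Percent of words of 36, 50 and 100 bases within 150 bp of the 5′ end that occur once in the genome, with 1 mark per gene, for sls-2 genes with and without a site within 200 bp and for sls-1 genes. At 11 of 12 sls-1 genes it is 0 for each word length, and for 100 bases it is 100% at all 18 sls-2 genes.

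Of 22 genes listed as candidates for making or using the spliced leader RNAs, 3 had a site in the same window (13.6%), against 4.42% of all protein-coding genes. Whether each listed gene has such a role was not examined, and the share depends on the list. The genes were snpc-3.4, whose family encodes a SNAPc subunit (signal 128, 67.9 in replicate 1 and 60.8 in replicate 2, summit at -45 bp), and snr-1 and snr-4, which encode Sm proteins that coat small nuclear RNAs. At snr-1 the signal was 127, with 66.7 in replicate 1 and 56.0 in replicate 2 and the summit at -385 bp. At snr-4, which had 2 sites, the stronger had 124, with 66.0 in replicate 1 and 55.7 in replicate 2, at -358 bp. No site lay at sna-1, sna-2 or sna-3, genes for proteins tied to the spliced leader particles, at sut-1 or sut-2, at snpc-4, which encodes the DNA-binding subunit of SNAPc, or at the other listed genes.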

How the data were processed

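Chromatin precipitated with tagged LIR-1 was sequenced in 2 libraries, and the deposited files are peak lists on ce11, per the labels. The deposited signal is a peak height from the authors' peak caller, and the deposited −log10 of the global IDR ranks peaks. Both rest on filtered alignments and a control alignment, per the deposited manifests. No source used here names the aligner, the peak caller or their versions, or gives read totals, so the depth is unknown.

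Genes came from Ensembl release 115 and sequence from RefSeq's copy of the same assembly, WBcel235. A replicate's value at a series peak is its strongest ranked peak overlapping by 1 bp or more. Leaders were marked up to the first GT that follows an AG in place of the 22 bases first planned. Words were counted on both strands. Scripts used Python 3.11.15, pandas 2.3.3, numpy 2.4.6 and scipy 1.17.1 and were tested on simulated data. The genes, lists and windows were chosen with earlier results of these data known. Named genes are all sls genes, the genes listed as candidates for making or using spliced leader RNAs, and protein-coding genes sharing a summit. No enrichment was tested. Alternatives were other peak sets, windows and assignment rules.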

Additional observations from a re-analysis of the deposited data

How the results depend on the processing

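The sls-1 count stayed at 0 under all 8 alternatives, and the sls-2 count, which is also the count over all 30 genes, ran from 9 to 11 except in the cases given here. Among the stronger 50% of sites it was 7, and 939 nuclear genes in all had a site. From 1 library alone the sls-2 count was 8 to 9 and the count over all nuclear genes was 850 to 1168. With a window of 200 bp on either side, 865 nuclear genes had a site. The median offset was -36 bp in the other series set and among the stronger 50%, and -45.0 to -36.5 bp from 1 library alone, always upstream. The median signal was 125 in the other series set, 147 among the stronger 50% and 56.4 to 68.7 from 1 library alone, where signal has another scale. Without replicate 2, sls-2.7 and sls-2.9 lost their site, and without replicate 1, sls-2.5, sls-2.16 and sls-2.18 did. By the nearest 5′ end, sls-2.9 and sls-2.18 had none. The cause of these shifts was not tested. No paired analysis was possible because there was 1 group. With 2 libraries and no depth, a missing site is not shown to be absent.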
